A study of Mus musculus with 16 samples.

Results

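Heart RNA of 16 mice was measured on 1 array each, and the arrays were divided by a single transcript, Myl7, which encodes the regulatory light chain of atrial myosin. The arrays were chosen by the deposited log2 value of Myl7: those above 6 formed one class and the rest formed the other, which gave 6 arrays against 10 of the 16. Myl7 was read on its only probe set with 1 gene symbol, 10384044. The class was set by a measured value and by no treatment, so the comparison shows which other transcripts went with Myl7 and not what an operation or a genotype did. Because Myl7 chose the classes, its own values are a description and were not tested.

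All mice were male C57BL/6 animals, 8 to 10 weeks old before surgery, and hearts were taken after 4 weeks. The 4 design groups held 4 mice each. They were control mice after a sham operation, control mice after transverse aortic constriction (TAC, a band around the aorta that loads the left ventricle with pressure), zbtb17 cKO mice after the sham operation, and zbtb17 cKO mice after TAC. cKO stands for a conditional knockout of Zbtb17, the gene of the transcription factor Miz1. The labels name neither the Cre driver nor the genotype of the control mice, and they give the tissue as heart without saying which chambers were taken. The targeted gene was not lower on the arrays labelled cKO: Zbtb17 averaged 6.36 ± 0.13 after sham and 6.45 ± 0.11 after TAC in control mice, and 6.52 ± 0.07 after sham and 6.5 ± 0.02 after TAC in cKO mice (log2, SD, n = 4 each). No source used here says whether its probe set lies in the deleted part of the gene, so the level may check nothing. Zbtb17 differed by 0.03 ± 0.06 (SE, adjusted p = 0.933) between the Myl7 classes.

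The 35556 probe sets had values from 2.34 to 14.35 on the log2 scale, and array medians ran from 4.85 to 4.97. Genes of heart muscle of both chambers were near the top of the range on all 16 arrays, with Myh6, the main myosin heavy chain of the adult mouse heart, between 12.88 and 13.42 and Tnnt2, cardiac troponin T, between 13.40 and 13.62. Some markers of tissues next to the heart were low on all arrays. Surfactant gene Sftpc (lung) lay between 3.32 and 3.75, recombination gene Rag1 (thymus) between 3.63 and 3.83, and the fast skeletal light chain Mylpf between 3.62 and 4.24. Other markers of these tissues, named after their values were seen, had higher means over the 16 arrays. Ager (lung) averaged 5.84, Cd3e (thymus) 5.03 and Tnni2 (skeletal muscle) 6.15. The 3 sham arrays with the stress gene Atf3 above 8 (control sham 3 at 10.18, cKO sham 1 at 9.58 and control sham 4 at 8.45) stood apart from the other 13, whose highest value was 7.26, and 1 of these, control sham 3, is in the class with high Myl7. With 6 arrays against 10, the precision of each value is limited by their number.

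Atrial and ventricular muscle share most of their contractile proteins but differ in their myosin light chains. Atrial cells use the light chains encoded by Myl7 and Myl4, and adult ventricular cells those encoded by Myl2 and Myl3. Atrial muscle is also known for Sln (sarcolipin, which inhibits the calcium pump), for secretory granules of the natriuretic peptide Nppa, and for the potassium channels Kcnj3 and Kcnj5, which respond to acetylcholine. The atria adjoin the heart valves and the fat at the base of the heart. In whole tissue, more cells of a type and more RNA per cell cannot be told apart.

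The class with high Myl7 held arrays of all 4 groups: 1 of 4 control sham, 2 of 4 control TAC, 1 of 4 cKO sham and 2 of 4 cKO TAC. Myl7 was 8.83 on cKO TAC 2, 8.62 on control sham 3, 8.46 on cKO sham 2, 7.26 on control TAC 2, and 6.07 on both control TAC 1 and cKO TAC 1. The nearest array below the limit was cKO sham 4 at 5.20, and the other 9 lay between 4.30 and 5.02. The 6 arrays were not alike: 3 had values above 8, and 2 were just inside the limit.

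With the 4 design groups in the model, 12 of 21332 probe sets tested were higher in the class with high Myl7 (0.0563% of those tested) and none was lower, by limma at a Benjamini-Hochberg adjusted p below 0.05. Without adjustment, 1787 probe sets had a p below 0.05 in either direction. By a count that needs no model, 19 probe sets (0.0891%) were higher on every one of the 6 arrays than on any of the 10 and 5 (0.0234%) were lower. The 12 genes fell into a small muscle group (Myl4 and Sln), a larger group of matrix and secreted proteins (Chad, Fmod, Prelp, Comp, Prg4, Angptl7, Cytl1 and Fibin), and 2 others (Pdgfrl and Pde3b). This grouping was made after the values were seen.

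Myl4, the essential light chain of atrial myosin, was higher by 3.45 ± 0.35 (log2, SE; 10.9-fold; adjusted p = 0.00174). Its values were 12.11 on cKO TAC 2, 11.18 on control sham 3, 11.09 on cKO sham 2, 10.30 on control TAC 2, 9.20 on control TAC 1 and 9.17 on cKO TAC 1. On the other 10 arrays it had a lowest value of 6.76, a median of 7.14 and a highest of 7.59. The classes did not overlap, and the 4 arrays with Myl7 above 7 had the same order in both genes. Over all 16 arrays Myl4 was higher by 1.09 ± 0.04 (SE) for each log2 unit of Myl7 with the design groups in the model (adjusted p = 7.61e-10).

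Sln was higher by 0.61 ± 0.09 (1.53-fold; adjusted p = 0.0278). It lay between 4.40 and 5.18 on the 6 arrays, with a median of 4.86, and between 4.14 and 4.31 on the other 10. Every array of the class was above every other array, but all values were in the lower part of the scale. Control TAC 2, with a Myl7 value of 7.26, had the lowest Sln of the class at 4.40. The mean of Sln on the other 10 arrays, 4.23, lay under the limit of 4.37 that the filter on low values sets on the mean of all 16, so Sln was tested only through the class in which it is high. With no filter it was not called (adjusted p = 0.0509).

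**Figure D1:**
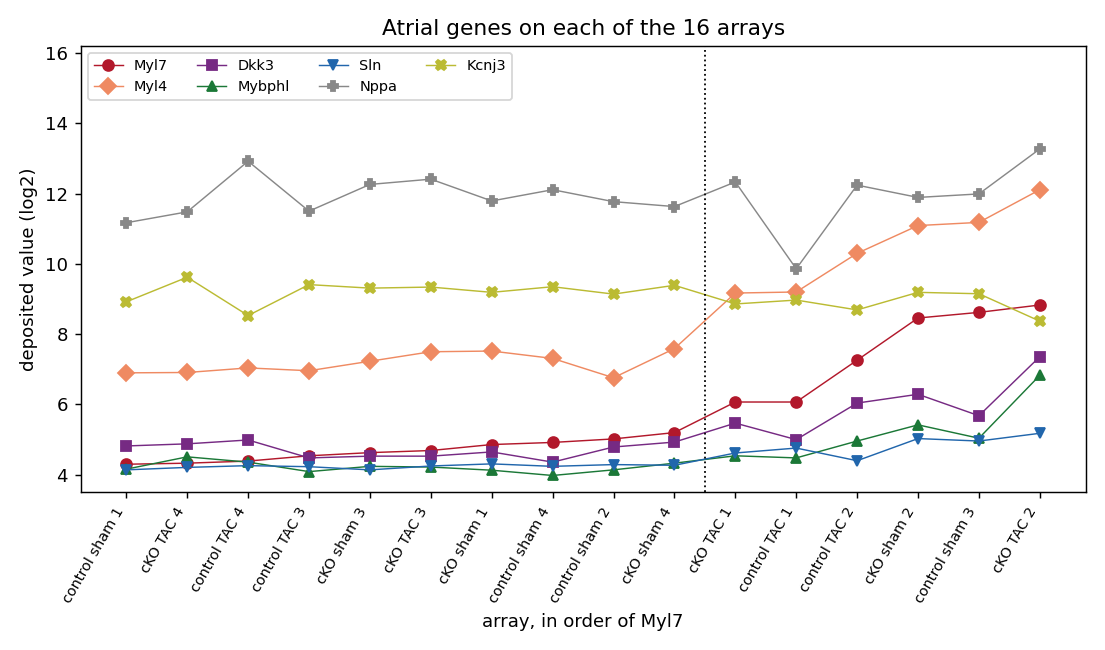
Deposited log2 values (vertical axis) of 7 atrial genes on each of the 16 arrays, which are set in order of Myl7 along the horizontal axis; the dotted line separates the 10 arrays at or below 6 from the 6 above. Myl7 and Myl4 rise together on the 6 arrays to the right, Dkk3, Mybphl and Sln rise less, and Nppa, which was lowest on control TAC 1 at 9.86, and Kcnj3 do not follow Myl7.

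The label of atrial tissue was checked against a list of 23 atrial cardiomyocyte genes. Without Myl7, 22 were on the array and 20 passed the filter on low values. Of these, 12 had positive and 8 negative differences, and 2 were called higher, Myl4 and Sln. The median difference was 0.12 against -0.01 over all probe sets tested. Of all probe sets tested, 47.1% had a positive difference and 0.0563% were called higher. Positive differences that did not pass the test belonged to Dkk3, a secreted Wnt modulator (1.27 ± 0.26, adjusted p = 0.140), Mybphl, a myosin-binding protein of atria and conduction cells (0.98 ± 0.25, adjusted p = 0.319), Cacna2d2, a calcium channel subunit (0.50 ± 0.11, adjusted p = 0.215), and Nr2f2, a transcription factor of atrial identity (0.29 ± 0.06, adjusted p = 0.118). Dkk3 was above all 10 other arrays on each of the 6, with 7.36 on cKO TAC 2 and 5.0 on control TAC 1 against at most 4.99. Mybphl was 6.83 on cKO TAC 2, 5.42 on cKO sham 2, 5.04 on control sham 3 and 4.96 on control TAC 2, and at most 4.54 on all other arrays. Both genes were thus clearest on the 4 arrays with the most Myl7. Tested against Myl7 as a continuous value, Dkk3 (0.44 ± 0.05 for each log2 unit, adjusted p = 0.00106), Mybphl (0.36 ± 0.05, adjusted p = 0.00342) and Cacna2d2 (0.17 ± 0.02, adjusted p = 0.00375) passed. Mybphl had a mean of 4.22 on the 10 other arrays, under the filter's limit, and like Sln entered the tests only through the class, so its values, and the counts of the list that hold it, are a description.

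Other genes known from atrial muscle did not go with Myl7. Nppa lay between 9.86 and 13.27 on the 6 arrays and between 11.17 and 12.92 on the other 10, a difference of -0.02 ± 0.38 (adjusted p = 0.996) whose sign turned when control TAC 1, the lowest array, was left out (0.35). Bmp10, a growth factor of atrial trabeculae, was between 3.44 and 3.81 on all 16 arrays and did not pass the filter. Kcnj3 had a difference of -0.31 ± 0.15 (adjusted p = 0.629), with 8.37 on cKO TAC 2, the array of highest Myl7, as its lowest value. Kcnj5 (-0.11 ± 0.12), the channel gene Kcna5 (0.06 ± 0.23), the kinase gene Sbk2 (-0.02 ± 0.08) and the transcription factor Tbx5 (-0.01 ± 0.13) also did not pass, each with an adjusted p of at least 0.876. Myl4 was called with and without the filter, Sln only with it, and most of the other atrial genes did not pass, so the arrays are called here by their Myl7 value and not by a tissue.

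Genes of ventricular muscle were little lower. Of 15 listed ventricular genes tested, 3 had positive and 12 negative differences, none was called, and the median was -0.09; of all probe sets tested, 52.6% had a negative difference. Myl2 differed by -0.06 ± 0.04 (adjusted p = 0.760) and Myl3 by -0.05 ± 0.03 (adjusted p = 0.756). Kcnd2, a channel of the transient outward current, had the lowest difference of that list, -0.44 ± 0.15 (adjusted p = 0.428), with 6.97 and 6.98 on cKO TAC 2 and control TAC 2 and at least 7.41 on the others. The transcription factor Irx4 differed by -0.09 ± 0.08 (adjusted p = 0.835). Of 20 transcription factors of the heart chambers tested, 8 had positive and 12 negative differences and none was called.

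**Figure D2:**
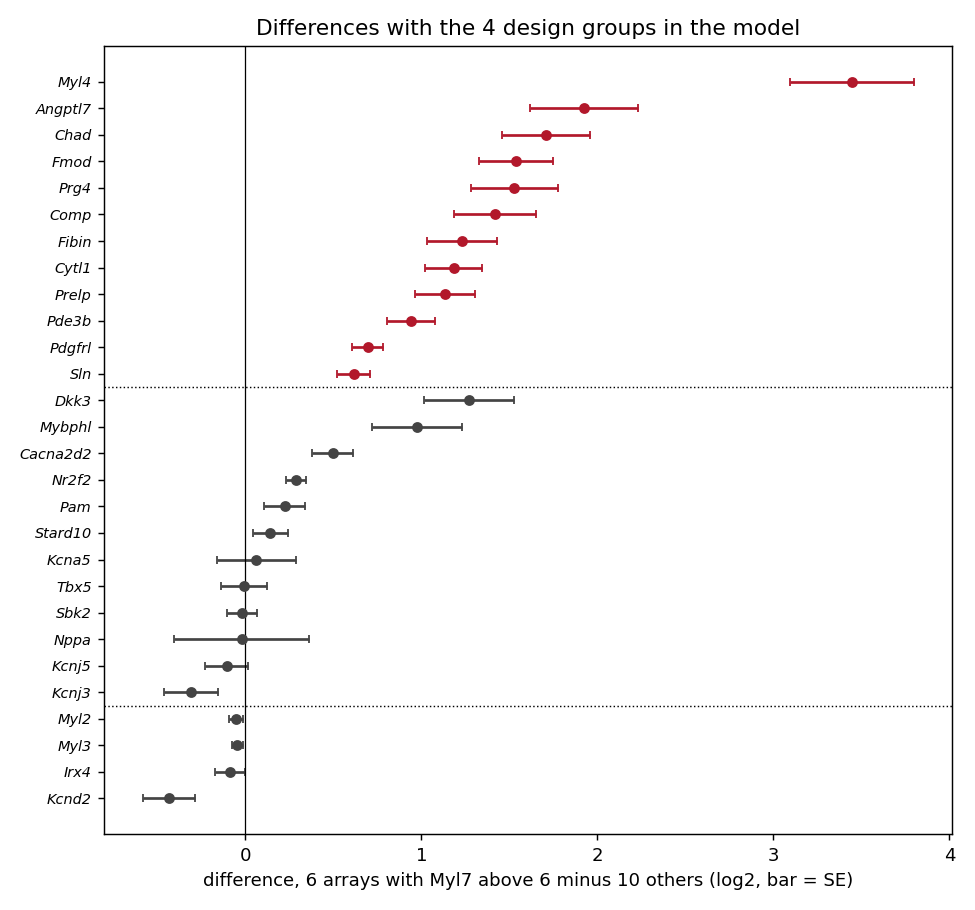
Differences between the 6 arrays with Myl7 above 6 and the 10 others on the log2 scale (points, with SE bars), for the 12 genes called higher (red, top), 12 further atrial genes (middle) and 4 ventricular genes (bottom). Myl4 stands farthest to the right at 3.45, and most atrial and ventricular genes below the first dotted line lie near 0.

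The genes of the conduction system were examined because some also mark atrial tissue. Of 14 on the array, 9 passed the filter, 8 of them with positive differences and a median of 0.22, and none was called. Of all probe sets tested, 47.1% had a positive difference, with a median of -0.01. Cntn2, a cell adhesion molecule of conduction cells, had the largest (0.36 ± 0.13, adjusted p = 0.441), followed by the calcium channel Cacna1g (0.31 ± 0.11, adjusted p = 0.458). The pacemaker channel Hcn4 differed by 0.14 ± 0.11 (adjusted p = 0.794). Cntn2 was between 5.62 and 5.67 on the 4 arrays with Myl7 above 7 and at most 5.28 on the other 12.

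Of the 12 called genes, 8 encode matrix or secreted proteins by the grouping above, while none of the 27 genes tested from the separate extracellular matrix list was called. Chad, chondroadherin, a leucine-rich matrix protein of cartilage, was higher by 1.71 ± 0.25 (3.26-fold; adjusted p = 0.0228). Its values were 7.39 on cKO sham 2, 7.22 on cKO TAC 2, 7.14 on control sham 3, 6.51 on control TAC 2, 5.75 on cKO TAC 1 and 5.23 on control TAC 1, against 4.68 to 5.20 on the other 10 arrays. The classes did not overlap, but control TAC 1 was only just above the highest of the others. Fmod, fibromodulin, a collagen-binding proteoglycan of tendon and cartilage, was higher by 1.54 ± 0.21 (2.90-fold; adjusted p = 0.0167), at 5.68 to 7.56 (median 6.57) against 4.68 to 5.46. Prelp, a proteoglycan of the same leucine-rich family, was higher by 1.14 ± 0.17 (2.20-fold; adjusted p = 0.0278), at 8.79 to 9.81 (median 9.10); the highest of the other 10 arrays, control TAC 4, was at 8.78. On control TAC 4, Chad was at 4.68, its lowest value of all 16 arrays, so these genes did not go together on that array.

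Comp, cartilage oligomeric matrix protein, was higher by 1.42 ± 0.24 (2.67-fold; adjusted p = 0.0450). It was 7.66 on cKO TAC 2 and between 5.39 and 6.67 on the other 5 arrays of the class, against 4.81 to 5.24. Prg4, lubricin, a glycoprotein that lubricates joint surfaces, was higher by 1.53 ± 0.25 (2.89-fold; adjusted p = 0.0380). Its lowest value in the class, 7.32 on control TAC 1, lay below the 7.53 of control TAC 4, so the classes overlapped. Angptl7, a secreted angiopoietin-like protein, had the second largest difference after Myl4, 1.92 ± 0.31 (3.79-fold; adjusted p = 0.0380). It was 8.66 on cKO TAC 2, 7.80 on cKO sham 2, 7.52 on control sham 3, 7.42 on control TAC 2 and 6.82 on cKO TAC 1, all above the other 10 arrays (5.11 to 5.82). Control TAC 1, at 5.65, lay within the range of those 10.

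Cytl1, a small secreted protein found in cartilage and in endocardial cells of the valves, was higher by 1.18 ± 0.16 (2.27-fold; adjusted p = 0.0167), at 8.17 to 9.38 (median 8.38) against 6.90 to 7.66. Fibin, a small secreted protein named for the fin bud, was higher by 1.23 ± 0.20 (2.34-fold; adjusted p = 0.0380), at 5.30 to 7.07 against 4.36 to 5.38. Pdgfrl, a protein that resembles a platelet-derived growth factor receptor, was higher by 0.69 ± 0.09 (1.62-fold; adjusted p = 0.0167), at 5.29 to 5.93 against 4.62 to 4.94. Pde3b, a phosphodiesterase that breaks down cyclic nucleotides in fat cells among others, was higher by 0.94 ± 0.14 (1.92-fold; adjusted p = 0.0228), at 5.79 to 6.55 (median 6.06) against 4.77 to 5.61. The classes did not overlap in Cytl1, Pdgfrl or Pde3b, and control TAC 1 was below the highest of the other arrays in Fibin.

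The promoters of the genes that went together are shown so that the muscle and the matrix members can be compared. Promoters of 8 of the 13 genes (Myl7 and the 12 called) were matched in RefSeq, build GRCm38.p6, from 250 bases before to 50 bases after the start; Pdgfrl, Pde3b, Sln, Prg4 and Comp were not matched. Myl7 and Myl4 are printed as the light chains, and Chad and Fmod as matrix members, 5′ to 3′ on the strand of the gene, with matches to the motifs given next in capitals. The Myl7 promoter is at chr11:5898733-5899032 on the minus strand and Myl4 at chr11:104550413-104550712 on the plus strand. Chad is at chr11:94564797-94565096 and Fmod at chr1:134037004-134037303, both on the plus strand. The windows of Myl4 and Prelp lie inside their genes (chr11:104546017-104587215 and chr1:133910304-133930102), so the start used there is not the first base of the gene. In the others it is.
Myl7: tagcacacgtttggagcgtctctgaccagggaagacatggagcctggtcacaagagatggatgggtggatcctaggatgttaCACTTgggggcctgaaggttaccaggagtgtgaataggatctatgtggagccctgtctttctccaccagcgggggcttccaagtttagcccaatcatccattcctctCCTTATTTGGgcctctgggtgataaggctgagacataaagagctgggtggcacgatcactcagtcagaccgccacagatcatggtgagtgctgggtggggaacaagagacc
Myl4: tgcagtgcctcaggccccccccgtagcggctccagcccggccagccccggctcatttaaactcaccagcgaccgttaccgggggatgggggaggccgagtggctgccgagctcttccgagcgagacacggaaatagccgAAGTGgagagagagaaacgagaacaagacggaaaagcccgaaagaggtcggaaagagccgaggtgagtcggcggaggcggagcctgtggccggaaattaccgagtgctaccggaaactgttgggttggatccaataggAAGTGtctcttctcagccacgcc
Chad: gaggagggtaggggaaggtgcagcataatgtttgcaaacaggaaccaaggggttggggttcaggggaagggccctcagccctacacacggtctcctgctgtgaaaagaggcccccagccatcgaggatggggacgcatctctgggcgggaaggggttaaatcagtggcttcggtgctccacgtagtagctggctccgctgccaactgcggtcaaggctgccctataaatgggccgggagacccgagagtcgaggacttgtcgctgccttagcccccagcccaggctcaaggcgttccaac
Fmod: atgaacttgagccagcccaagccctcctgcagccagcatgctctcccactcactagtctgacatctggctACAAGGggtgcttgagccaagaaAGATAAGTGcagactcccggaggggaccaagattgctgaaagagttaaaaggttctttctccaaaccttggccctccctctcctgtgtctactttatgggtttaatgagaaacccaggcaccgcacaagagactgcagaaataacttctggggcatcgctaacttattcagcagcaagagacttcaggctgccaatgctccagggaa
Motifs were searched on both strands in windows of 300 bases, and overlapping matches were counted each. AAGTG, the core bound by NKX2-5, was in 5 of the 8 promoters (Myl7, Myl4, Cytl1, Fmod and Prelp) and in 46.4% of all 32851 promoters of the table. AGATAA, bound by GATA factors, was in Fmod alone, where it overlaps an AAGTG, against 11.2% of all promoters. ACAANG, bound by SOX factors, was also in Fmod alone, against 41.2%, and the CArG box in Myl7 alone, against 1.63%. AGGTGT (T-box), AGGTCA (nuclear receptors) and the MEF2 site were in none of the 8, against 13.7%, 16.3% and 3.19% of all promoters. Chad, Angptl7 and Fibin held none of these letters in this window. A match is a description of the letters only.

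Genes of similar kinds that missed the threshold were chosen after their values were seen and are given as values. Thbs4, a thrombospondin of tendon and heart, had a difference of 1.42 ± 0.26 (adjusted p = 0.0869), Frzb, a secreted Wnt inhibitor of cartilage, 1.11 ± 0.20 (adjusted p = 0.0869), Mgp, which holds back calcification of matrix, 0.93 ± 0.18 (adjusted p = 0.118), and Clec3a, a lectin of cartilage, 1.33 ± 0.26 (adjusted p = 0.118). Clec3a was 6.15 to 6.80 on the 4 arrays with Myl7 above 7 and 5.04 or lower on the other 12. Thbs4 was 8.26 on cKO TAC 2, 7.03 on cKO TAC 1 and 7.0 on control TAC 2, and 5.49 on control TAC 1, within the range of the 10 others (5.15 to 5.73).

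Both arrays with Myl7 at 6.07 had nearly the same value of the light chains and differed in the matrix genes. Myl4 was 9.20 on control TAC 1 and 9.17 on cKO TAC 1, and Cytl1 was 8.17 on both. Angptl7 was 5.65 on control TAC 1 and 6.82 on cKO TAC 1, Prg4 was 7.32 and 8.82, Fibin 5.30 and 6.53, and Thbs4 5.49 and 7.03, in the same order. Genes of the ventricular response to pressure also differed between this pair: the skeletal actin Acta1 was 9.31 on control TAC 1, the lowest of the 16 arrays, and 12.65 on cKO TAC 1, the highest, and Nppa was 9.86 and 12.33. A pair of single arrays has no replicate check, and the part of the response to pressure in the matrix values was not tested.

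**Figure D3:**
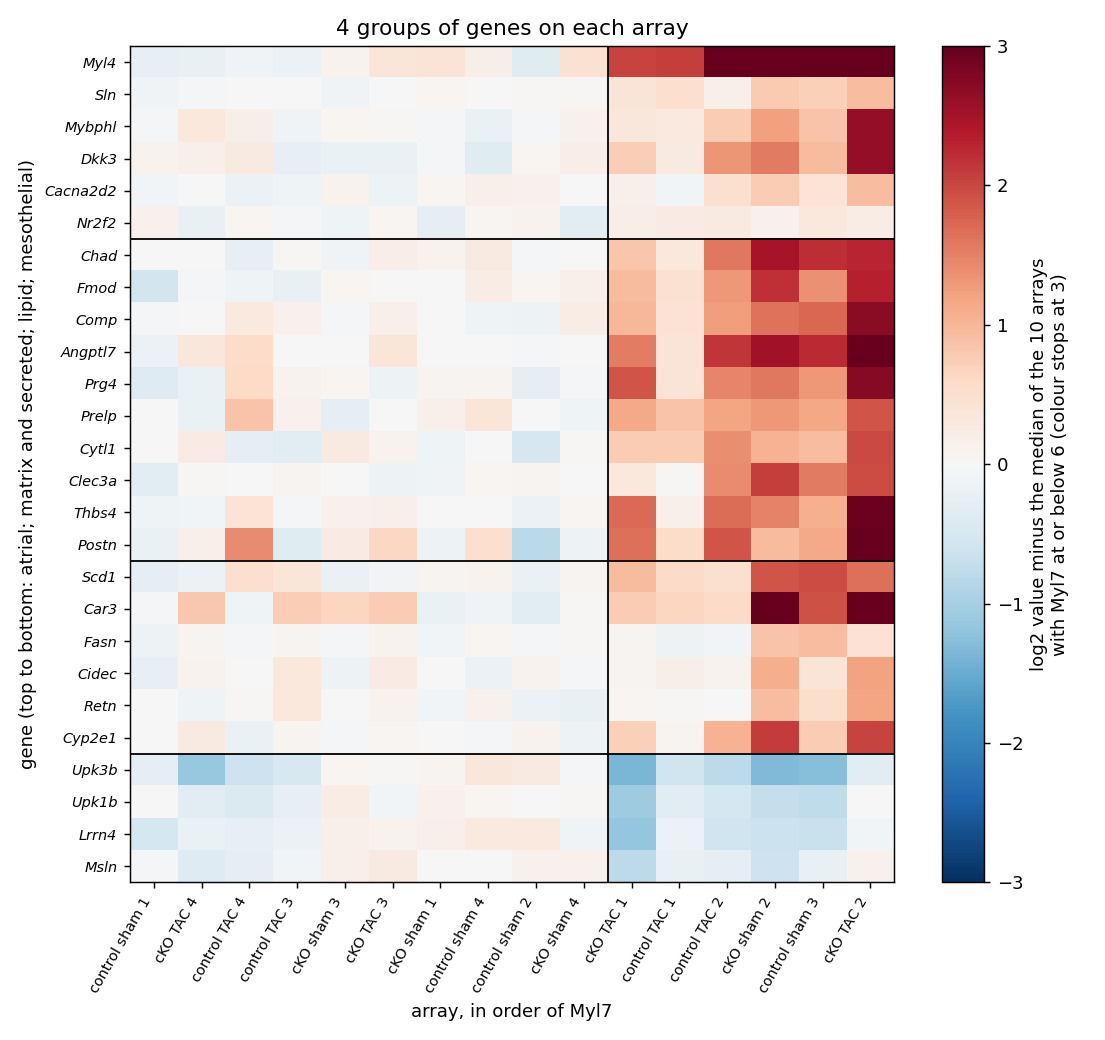
Log2 value of each gene (rows) on each array (columns, in order of Myl7) minus the median of the 10 arrays with Myl7 at or below 6, in colour from blue (lower) to red (higher); rows are, from the top, 6 atrial genes, 10 matrix and secreted genes, 6 lipid genes and 4 mesothelial genes. The matrix rows other than Cytl1, which is 8.17 on both, are higher on cKO TAC 1 than on control TAC 1. Clec3a is pale on both, at 5.04 and 4.78. The lipid rows other than Cyp2e1 are highest on cKO sham 2, control sham 3 and cKO TAC 2, with Scd1 highest on control sham 3 at 9.40. Some of these cells are pale, such as Fasn on cKO TAC 2 at 6.76. Cyp2e1 is 5.07 on control TAC 2 and 4.79 on control sham 3.

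Over the lists, fibroblast and matrix genes went toward the class with high Myl7. Of 18 fibroblast markers tested, 17 had a positive difference, 1 (Comp) was called and the median was 0.45. All 27 extracellular matrix genes tested had a positive difference, none was called, and the median was 0.37; of all probe sets tested, 47.1% had a positive difference. The largest was that of periostin, Postn, a matrix protein of activated fibroblasts (1.31 ± 0.36, adjusted p = 0.358), which was 11.58 on cKO TAC 2 and 9.48 on control TAC 4, an array with low Myl7. Biglycan, Bgn, differed by 0.72 ± 0.18 (adjusted p = 0.257), the collagen gene Col12a1 by 0.59 ± 0.15 (adjusted p = 0.274), and decorin, Dcn, by 0.28 ± 0.06 (adjusted p = 0.192). The genes of the response to pressure had 13 positive and 1 negative difference and a median of 0.52, the highest of the lists with at least 5 members tested, and they share Postn, Col8a1, Timp1, Tnc and Ccn2 with the matrix list. The mean of the response list per array ranged from 8.42 to 10.51 in the class with high Myl7 and from 8.51 to 9.49 on the others, and its part in the matrix values was not tested.

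Of 10 endocardial and valve endothelial markers tested, 8 had positive differences, Cytl1 was called and the median was 0.17. Of 16 endothelial markers tested, 13 had positive differences with a median of 0.08 and none was called. Smooth muscle and great vessel markers had 11 positive and 2 negative differences (median 0.08, none called), led by calponin, Cnn1 (0.60 ± 0.14, adjusted p = 0.245) and Tagln (0.43 ± 0.14, adjusted p = 0.395). Macrophage markers (10 positive of 13, median 0.02) and markers of cardiac neurons and Schwann cells (4 of 8, median 0.01) lay near the median of all probe sets, with none called. Lung (1 positive of 5), thymus (1 of 2) and skeletal muscle markers (2 of 7) also had none called, with medians of -0.05 for lung and -0.04 for skeletal muscle.

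**Figure D4:**
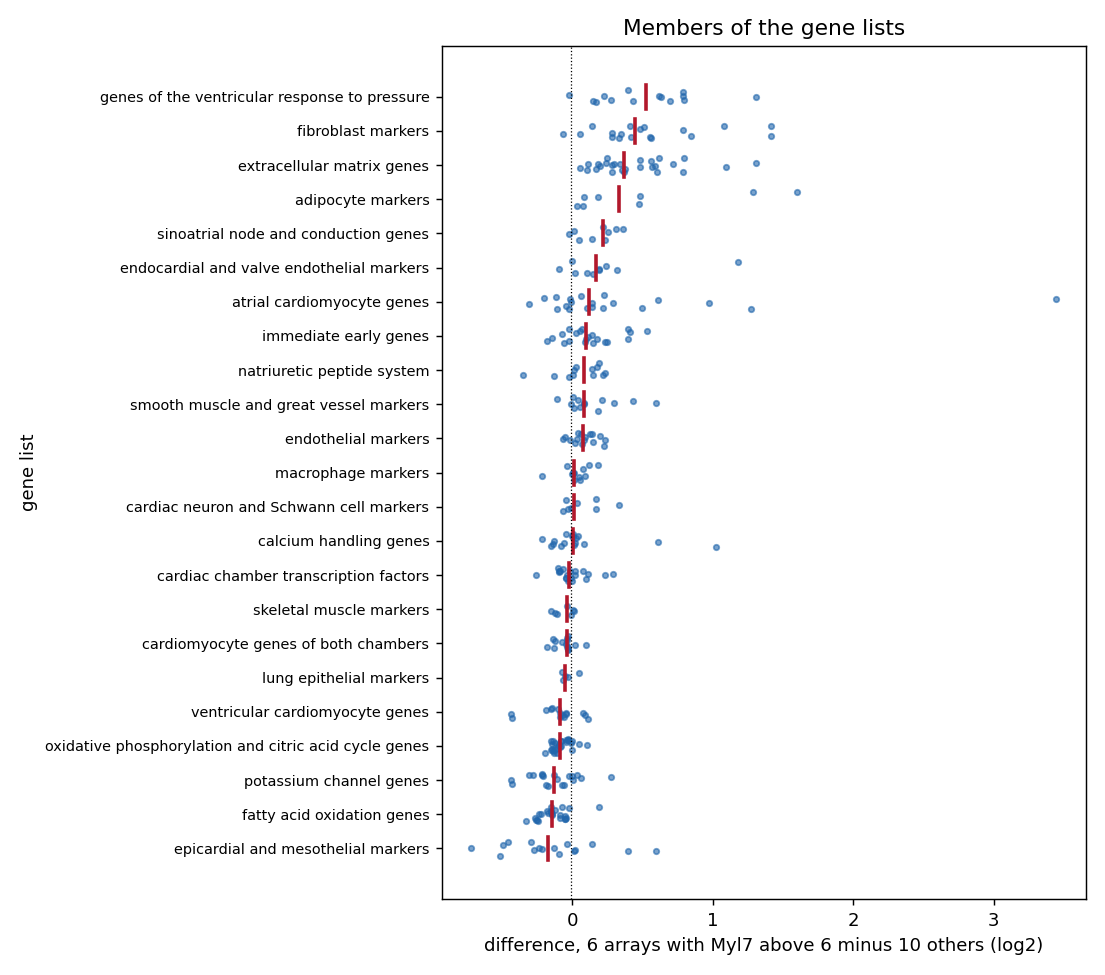
Differences (log2, horizontal axis) of the members tested of each gene list (blue points, rows), with the median of the list as a red bar and that of all probe sets tested as a dotted line. The lists of the pressure response, fibroblasts and matrix lie highest with medians from 0.37 to 0.52, and the epicardial list lowest at -0.18.

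Some genes of lipid storage were high on 3 of the 6 arrays. All 8 adipocyte markers tested had positive differences, none was called, and the median was 0.33. Of these, Plin1 (0.19 ± 0.09), Pck1 (0.08 ± 0.08), Lipe (0.08 ± 0.08) and Cidea (0.03 ± 0.08), named after their values were seen, had the smallest differences. Plin1 was 5.46 on control sham 3, 5.40 on cKO sham 2 and 5.26 on cKO TAC 2, and it reached 5.31 on cKO sham 1. Car3, a carbonic anhydrase abundant in fat cells, was 8.57 on cKO sham 2, 8.24 on cKO TAC 2 and 6.93 on control sham 3 and at most 5.83 on the other 13 arrays (difference 1.60 ± 0.40, adjusted p = 0.274). Scd1, which desaturates fatty acids, was 9.40 on control sham 3, 9.32 on cKO sham 2 and 9.08 on cKO TAC 2, and at most 8.38 elsewhere (1.29 ± 0.23, adjusted p = 0.0848). The lipid droplet gene Cidec was 5.97, 5.86 and 5.15 on cKO TAC 2, cKO sham 2 and control sham 3 and at most 5.07 elsewhere, and the adipokine Retn was 5.84, 5.57 and 5.17 in the same order and at most 4.97 elsewhere. Adipoq, the defining adipokine of fat cells, did not pass the filter; it was 4.71, 4.56 and 4.16 on these arrays and reached 4.34 on cKO TAC 3. Control TAC 2, with Myl7 at 7.26, had Car3 at 5.60, Cidec at 4.88 and Retn at 4.65, within the range of the low class in each.

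Markers of the epicardium went the other way on some arrays. Of 16 epicardial and mesothelial markers tested, 11 had negative and 5 positive differences and the median was -0.18, with none called over all 16 arrays. Upk3b, a uroplakin that marks the mesothelial covering of the heart, differed by -0.72 ± 0.23 (adjusted p = 0.403). It was 5.68 on cKO TAC 1, 5.71 on cKO sham 2 and 5.76 on control sham 3, lower than on all 10 other arrays (5.90 to 7.39), and 6.69 on cKO TAC 2, within their range. Upk1b (-0.46 ± 0.15, adjusted p = 0.410) and Lrrn4 (-0.51 ± 0.17, adjusted p = 0.421), from the same cells, were also lowest on cKO TAC 1. Aldh1a1, an enzyme of retinoic acid synthesis in the same list, had a positive difference of 0.60 ± 0.15 (adjusted p = 0.317).

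Metabolic genes of heart muscle had small negative differences. Of 28 genes of oxidative phosphorylation and the citric acid cycle tested, 26 had a negative difference, none was called, and the median was -0.09. Of 24 fatty acid oxidation genes tested, 23 had a negative difference with a median of -0.15 and none was called. Of all probe sets tested, 52.6% had a negative difference. The median of the first list was -0.03 in sham arrays and -0.11 in TAC arrays, and that of the fatty acid list -0.09 and -0.18. Mdh2, malate dehydrogenase, differed by -0.13 ± 0.04 (adjusted p = 0.366). Eci1, an isomerase of unsaturated fatty acids, differed by -0.23 ± 0.07, and Acadvl, the very long-chain acyl-CoA dehydrogenase, by -0.27 ± 0.08 (adjusted p = 0.362 for both). Acadvl was lowest on cKO TAC 2, at 9.79, and between 10.06 and 10.67 on the other 15 arrays.

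Of the probe sets with lower values in the class, those of Tnfaip8 and Eya1 had the smallest p values; neither passed the test, and both were chosen after their values were seen. Eya1, a transcriptional coactivator, was 4.34 to 4.67 on the 6 arrays and 4.90 to 6.01 on the other 10, with no overlap (-0.77 ± 0.15, adjusted p = 0.118). Tnfaip8, a regulator of cell death, was 7.70 to 8.01 against 7.95 to 8.84 (-0.63 ± 0.12, adjusted p = 0.0948). Both passed as lower when only the 15021 tested probe sets with 1 gene symbol were adjusted together, where 25 were called higher and 2 lower. That setting was also chosen after the data were seen.

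The classes were then compared within each surgery. Among the 8 sham arrays (2 with high Myl7 against 6), 15 probe sets were called higher (0.0703%) and 4 lower (0.0188%). Among these were 8 of the 12 genes named above: Angptl7 (2.42 ± 0.10, adjusted p = 8.35e-05), Myl4 (3.92 ± 0.18, adjusted p = 0.000108), Chad (2.30 ± 0.13, adjusted p = 0.000385), Comp, Prg4, Fmod, Sln and Prelp. The others called higher were Scd1 (2.00 ± 0.14, adjusted p = 0.00102), Thbs4, Clec3a and the fatty acid synthase Fasn (0.93 ± 0.10, adjusted p = 0.0195). Car3 (2.71 ± 0.30, adjusted p = 0.0223) and the cartilage protein Cilp (0.95 ± 0.10, adjusted p = 0.0195) were also among them. Mybphl was called too (1.07 ± 0.11, adjusted p = 0.0134). Mybphl and Sln passed the filter on low values only through the class, so their values and calls here are a description. Those called lower were Upk3b (-1.38 ± 0.16, adjusted p = 0.0246), Upk1b (-0.81 ± 0.10, adjusted p = 0.0287), Ocel1 (-1.17 ± 0.14, adjusted p = 0.0287) and an unnamed probe set, 10342774. Both sham arrays in the class, control sham 3 and cKO sham 2, had Upk3b at 5.76 and 5.71, and the other 6 had 6.77 to 7.39. Control sham 3 was also the array of highest Atf3, at 10.18, and the part of that in these values was not tested.

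Among the 8 TAC arrays, 4 against 4, none was called by limma (0% of those tested), with 1505 probe sets at an unadjusted p below 0.05. Myl4 differed by 3.09 ± 0.56 there (adjusted p = 0.683), with the 4 arrays between 9.17 and 12.11 against 6.91 to 7.5. All 15 probe sets called higher in sham arrays were also positive in TAC arrays, and 3 of the 4 called lower were negative. Of all probe sets, 55.9% had the same sign in both. The 15 include Sln and Mybphl, which passed the filter only through the class, so this count is a description. Differences in Prg4 were alike (1.53 ± 0.13 in sham and 1.53 ± 0.41 in TAC), and those in Car3 were 2.71 ± 0.30 and 0.76 ± 0.47. Tested directly, the difference between the surgeries passed for no probe set (0 called by limma, 646 at an unadjusted p below 0.05; smallest adjusted p = 0.218, shared by Fasn and Ocel1). Ocel1, a gene of an occludin-like domain, was 5.98 and 6.51 on the sham arrays in the class and 7.33 to 7.58 on the other 6 sham arrays, but among TAC arrays it was 6.25 to 7.75 in the class and 6.15 to 7.54 outside it.

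**Figure D5:**
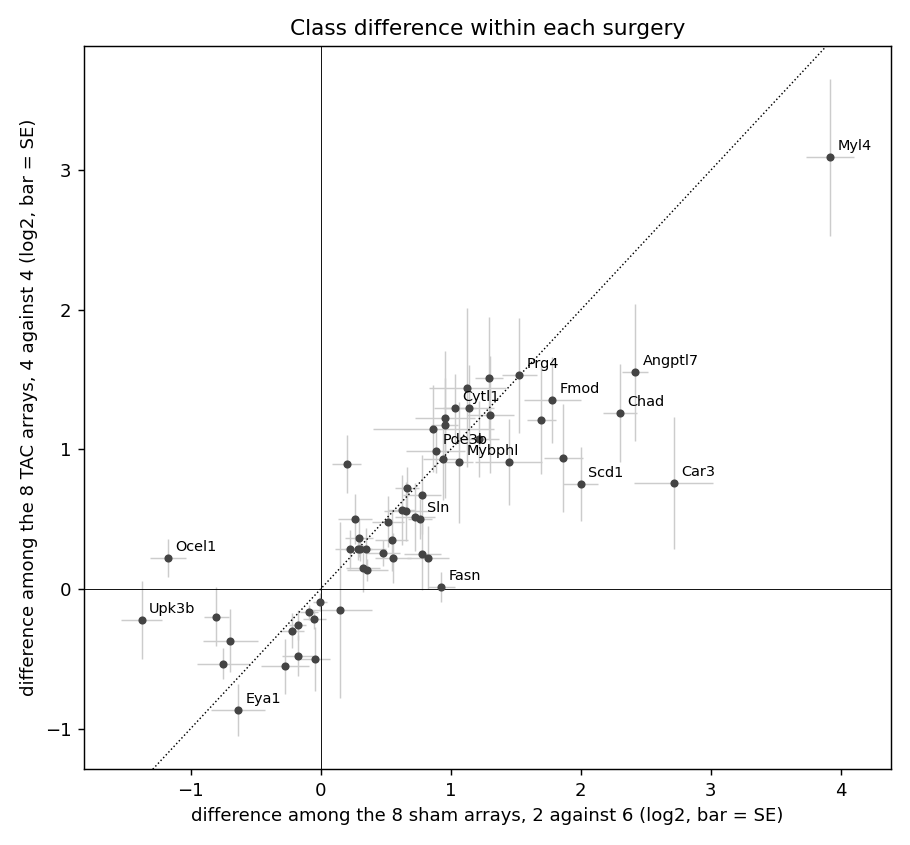
Class difference (log2, with SE bars) among the 8 sham arrays (horizontal axis, 2 against 6) and among the 8 TAC arrays (vertical axis, 4 against 4) for the 59 genes whose differences were recomputed; the dotted line marks equal differences. Myl4 is highest on both axes, Car3, Scd1 and Fasn lie below the line, and Ocel1 is negative in sham arrays and positive in TAC arrays.

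When Myl7 entered as a continuous value, 70 probe sets (0.328%) rose with it and 2 (0.00938%) fell, among them all 12 called by class. This relation was read from the same arrays. The 70 include Sln, Mybphl and Cyp2e1, which passed the filter only through the class. For each log2 unit of Myl7, Chad was higher by 0.57 ± 0.03 (adjusted p = 7.64e-07), Fmod by 0.50 ± 0.03 (adjusted p = 7.69e-07), Comp by 0.48 ± 0.03 and Angptl7 by 0.65 ± 0.05 (adjusted p = 3.07e-06 for both). Clec3a (0.47 ± 0.04, adjusted p = 2.33e-05), Col12a1 (0.22 ± 0.03, adjusted p = 0.00174) and Cnn1 (0.21 ± 0.03, adjusted p = 0.00382) passed here as well.

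The comparisons the study was built for were read with and without the class as a term. In sham arrays, cKO against control had 5 probe sets called without the class (0.0234%), Myl2 among them. With the class it had 0 (2324 at an unadjusted p below 0.05 by limma). In TAC arrays the same comparison had 1 without the class (0.00469%), Myl2. It had 2 with the class (0.00938%), Myl2 and Plbd1, which encodes a phospholipase B-like protein, both lower in cKO mice. Myl2 averaged 13.22 in control and 12.85 in cKO mice after sham, and 13.24 and 12.76 after TAC. TAC against sham had none in either genotype, with or without the class, with 1709 probe sets at an unadjusted p below 0.05 in control and 1282 in cKO arrays with the class in the model. The counts are small in each model, and no test of the change between models was run.

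The count of 12 depended on single arrays. Leaving out control sham 3, cKO sham 2, cKO TAC 3 or cKO TAC 4 left 1 probe set higher, Myl4 in each case. Without control TAC 2, control TAC 3, cKO sham 3 or cKO sham 4 the count was 4, and without cKO sham 1 or control sham 2 it was 5. It was 9 without cKO TAC 2, 10 without control sham 1, 11 without cKO TAC 1 or control sham 4, 28 without control TAC 4 and 30 without control TAC 1. Myl4 was called in all 16 of these fits, Pdgfrl in 12, Cytl1 and Fmod in 11, Chad, Pde3b and Sln in 7, Prelp in 6, Prg4 and Comp in 4, and Angptl7 and Fibin in 3. When the 3 sham arrays of high Atf3 were left out, which left 1 sham array in the class, none was called (adjusted p = 0.0567 for Myl4, at 3.24, and for Pde3b, at 1.06; 1674 probe sets at an unadjusted p below 0.05 by limma). All 12 genes kept a positive difference in every one of these fits.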

How the data were processed

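RNA of 16 hearts was hybridised to Affymetrix arrays, 1 per mouse. The authors deposited log2 values with 2 decimals for 35556 probe sets; MAS5 is named, with no version, in the submitters' processing notes, and the normalization between arrays and the genome build are not given in the sources used here. Of the probe sets, 21789 have 1 gene symbol in the platform annotation, 1621 several and 12146 none listed; symbols were updated through Entrez IDs, which matched 21698. A gene was read on its probe set of highest mean. Nothing in the labels says more of replicates than that each is 1 mouse.

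Probe sets with a mean above the 40th percentile (log2 of 4.37) were tested, 21332 without Myl7. limma 3.58.1 in R 4.3.3 fitted the 4 group means and the class on all 16 arrays (11 residual degrees of freedom), with a mean-variance trend in the empirical Bayes step; tests were two-sided and called at a Benjamini-Hochberg adjusted p below 0.05. Errors after a difference are standard errors of the fit. Sham and TAC arrays were also fitted apart, Myl7 was entered as a continuous term, and the interaction of class and surgery was tested. The 25 gene lists are described by counts and medians, with no test of a list. Named genes are the members of the atrial, ventricular and transcription factor lists, the 12 largest rises and falls past the threshold, up to 4 members of smallest p from each other list, and Zbtb17; others are said to be chosen after their values were seen, and these include Acta1, Atf3, Cyp2e1, Plbd1 and the genes of the sham comparison. The members and the lists were chosen with earlier results of these data known. The fit was tested on simulated data, figures were drawn with matplotlib 3.10.9, and promoters came from RefSeq tables of GRCm38.p6.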

Additional observations from a re-analysis of the deposited data

Results flagged for a closer look

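In each design group of 4 arrays, a gene's highest or lowest value was set apart when its gap to the next exceeded Dixon's 95% limit. This was so in 46 of 400 groups of values examined, and chance gives about 5% of independent groups. The genes examined include Myl7, which chose the arrays, and genes named because they are high on those arrays, and genes that vary together on an array are not independent, so the number is a description only. No explanation was weighed.

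On cKO sham 2, the following stood above the other 3 cKO sham arrays. Among muscle genes, Myl7 was 8.46 against at most 5.20, Myl4 11.09 against at most 7.59, Mybphl 5.42 against at most 4.33 and Cacna2d2 5.77 against at most 5.12. Among matrix and secreted genes, Fmod was 7.41, Chad 7.39, Angptl7 7.80, Prg4 8.52, Comp 6.59, Thbs4 6.81, Col12a1 5.0, Cilp 5.66 and Clec3a 6.80. Among lipid genes, Scd1 was 9.32, Cidec 5.86, Cyp2e1 6.12 and Fasn 7.18. The same array stood below the other 3 in Bmp10 (3.57), Upk3b (5.71), Gpm6a, a membrane protein of mesothelium (5.51), and Ocel1 (6.51).

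On control sham 3, Myl7 was 8.62 against at most 5.02 on the other 3 control sham arrays and Myl4 11.18 against at most 7.31. Mybphl was 5.04, Pdgfrl 5.33, Chad 7.14, Angptl7 7.52, Comp 6.67, Thbs4 6.40, Car3 6.93 and Cilp 5.90, all above the other 3. Upk1b (4.82), Ocel1 (5.98) and Eci1 (10.40) were below them.

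On cKO TAC 2, Mybphl was 6.83 against at most 4.54 on the other 3 cKO TAC arrays, Car3 8.24 against at most 5.83, Cidec 5.97 against at most 5.01 and Fasn 6.76 against at most 6.44. On control TAC 2, Cacna2d2 was 5.48 against at most 4.92 and Clec3a 6.15 against at most 4.82. On control TAC 1, Pam, the enzyme that amidates peptides in atrial granules, was 10.41 against at least 10.83.

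Arrays with Myl7 at or below 6 stood apart in 5 genes. Retn (4.97) and Corin, the protease that activates Nppa (10.40), were high on control TAC 3, and Irx4 (8.06) on control sham 2. Kcnj5 (8.08) was low on cKO sham 1 and Cacna1g (6.26) on cKO sham 3.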

How the results depend on the processing

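The differences of 59 genes were recomputed under 18 other settings and with each of the 16 arrays left out. Directions turned in 11 cases, in 2 genes. Nppa turned positive with array weights (0.0551), with no design groups (0.026), with the limit on Myl7 at 7 (0.578), with Myl7 as a continuous term (0.0959), in sham arrays only (0.152), without both arrays at 6.07 (0.399), and without cKO sham 3 (0.0132), control TAC 1 (0.348), control TAC 4 (0.247) or control sham 4 (0.0115), and it lay between -0.213 and 0.348, with an adjusted p from 0.754 to 0.998, over the fits that left out 1 array. Ocel1 turned positive in TAC arrays only (0.22). Leaving out 1 array gave 1 to 30 genes higher and 0 to 2 lower in the class, 0 to 1 whose class difference differed between surgeries, and 1 to 25 over the 4 comparisons of the design groups, where 2 were called with all arrays and 25 without control sham 4.

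Counts of genes higher, and lower where not 0, were 6 with no filter or a filter at the 60th percentile, 25 and 1 with array weights, 20 and 2 with no design groups, 25 and 1 with the limit at 7, 0 with the limit at 5 (Myl4 2.50, adjusted p = 0.776), 70 and 2 with Myl7 continuous, 0 in TAC arrays only, 4 lower in sham arrays only, and 27 and 2 with probe sets averaged per gene, which tested 13669 genes. Of the alternatives chosen after seeing the data, leaving out both arrays at 6.07 gave 35 and 1, leaving out the 3 sham arrays with Atf3 above 8 gave 0, and testing only probe sets with 1 gene symbol gave 25 and 2. Quantile normalization gave 11, and median centring and no trend 12 each. One gene differed in its class difference between surgeries with the limit at 7 and 1 with the mean of probe sets. Over the 4 design comparisons, the count of 2 became 1 with median centring, the limit at 5 or either set of arrays left out, 7 with no filter, 0 with no trend, and 4 with array weights, the limit at 7, Myl7 continuous or 1 gene symbol. With the replicate number as a block, 2 genes were higher (Myl4 and Fmod) and 1 was called over the design comparisons; the numbers do not pair the mice by any label, and 6 of 24 same-numbered pairs had a correlation of deviations above 0.1 (range -0.21 to 0.19), 3 of them among control TAC 2, cKO sham 2 and cKO TAC 2, which all have high Myl7. Myl4 missed the threshold with the limit at 5, in TAC arrays only and without the 3 sham arrays. Low signal limits Sln, Mybphl and Cyp2e1, whose means on the 10 arrays with low Myl7 lie under the filter's limit; with no filter Sln was not called.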

Other observations

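Several lists not described above also had none called beyond genes already named. Of 17 calcium handling genes tested, 9 had positive and 8 negative differences (median 0.01). Only Sln was called, and it passed the filter on low values only through the class, so that call is a description. Casq1, the calcium store protein of skeletal muscle, had the largest difference, 1.03 ± 0.29 (adjusted p = 0.362). Casq1 was 10.39 on control TAC 2 but also 10.10 on cKO sham 1, which has low Myl7. Of 19 potassium channel genes tested, 15 had negative differences (median -0.13). Of 12 genes of the natriuretic peptide system, 9 had positive differences (median 0.08); Corin differed by -0.35 ± 0.11 (adjusted p = 0.362) and Pam by 0.22 ± 0.12 (adjusted p = 0.648). Of 15 cardiomyocyte genes of both chambers, 13 had negative differences (median -0.04). Of 21 immediate early genes, 15 had positive differences (median 0.10), with a median of 0.34 in sham arrays, where Atf3 was 10.18 on control sham 3, and -0.07 in TAC arrays. Both red blood cell markers tested had positive differences (median 0.05).

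Signalling genes chosen after their values were seen also had positive differences by class. Inhba, an activin subunit, had a difference of 0.77 ± 0.15 (adjusted p = 0.118), with 5.44 to 6.46 on the 6 arrays against 5.13 to 5.91. The Wnt inhibitor Wif1 differed by 0.57 ± 0.13 (adjusted p = 0.192). Wif1 was highest on cKO sham 2 at 6.14, but 5.43 on cKO TAC 2, the array of highest Myl7, and 5.60 on cKO sham 1, which has low Myl7. Sox9, a transcription factor of cartilage and valve cells, differed by 0.51 ± 0.15 (adjusted p = 0.362). Sox9 was 6.73 on cKO TAC 2 and 6.46 on control sham 4, an array with low Myl7. None of the 3 passed the test by class; with Myl7 as a continuous term Inhba passed (0.25 ± 0.03 for each log2 unit, adjusted p = 0.00195).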
